A study of Mus musculus with 16 samples.

Results

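The comparison described here is the effect of the PS19 tau transgene on hippocampal expression in mice whose p16 gene is intact. It rests on 8 of the 16 bulk RNA sequencing libraries of the study, chosen by their titles: 4 from PS19 mice and 4 from wildtype mice, called WT. All 8 come from 8-month-old female mice, and both groups are wildtype for p16. The other 8 libraries, from p16 knockout mice without the transgene (p16KO) and with it (PS19_p16KO), entered the statistical fit, where they add to the estimate of the spread, and served for one comparison at the end. The PS19 line expresses a mutant human tau, of a kind found in inherited dementia, from the promoter of the mouse prion protein gene, so the transgene is driven in neurons and in other cells that use that promoter. Separate animals within a group are not stated by the labels, and p-values therefore speak only of the spread among these libraries, which may be technical.

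Tau is a protein of neuronal microtubules that forms aggregates in Alzheimer's disease and in frontotemporal dementias. In the hippocampus, excitatory neurons of the dentate gyrus and of the CA fields form a relay, GABA-releasing interneurons restrain it, and astrocytes, oligodendrocytes, microglia and vessels support it. Astrocytes answer injury by building up the filament protein GFAP, and microglia do so with complement, lysosomal enzymes and phagocytic receptors. A bulk library mixes all of these cells, and fewer cells of a type and less RNA per cell cannot be told apart in it.

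The PS19 and WT libraries held between 18583666 and 22311322 counts in genes. Levels are given as CPM, a gene's counts relative to the total of its library after TMM scaling, and always in the order of libraries 1 to 4. Genes were called by edgeR's quasi-likelihood test when the Benjamini-Hochberg adjusted p over all 16372 genes tested was under 0.05, and each log2 fold change (PS19 against WT) stands with its standard error. By this rule 264 genes (1.61%) changed, 255 higher (1.56%) and 9 lower (0.055%). The median log2 fold change of all genes was -0.01. When only the 8 compared libraries were fitted, the calls were 70, of which 64 were shared with the fit on 16 libraries. Markers of the dissected tissue were present in every library, with Prox1, a transcription factor of dentate granule cells, between 117 and 159 CPM.

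To describe cells and processes, 39 lists with 646 genes were used, of which 624 genes could be tested. Neuronal genes made up 190 of these and 0 were higher and 2 lower. Of 39 astrocyte genes 6 were higher, of 29 oligodendrocyte genes 0, of 103 vessel genes 4 and of 24 genes of the choroid plexus and ependyma 0, and in these groups 0 were lower. An unadjusted p under 0.05 was reached by 10 neuronal, 15 oligodendrocyte and 0 choroid plexus and ependymal genes, DESeq2 called 3, 4 and 0 of them and limma-voom 0, 0 and 0. By contrast 29 of 54 microglial genes were higher and 1 lower. Of 189 genes in lists of processes, 24 were higher and 2 lower. Another 193 higher and 4 lower genes belonged to no list. The shares called over all genes, 1.56% higher and 0.055% lower, are the background against which these counts stand. For the other counts, here and below, 1567 of all 16372 genes had an unadjusted p under 0.05. DESeq2 called 390 of all genes and limma-voom 190.

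**Figure D1:**
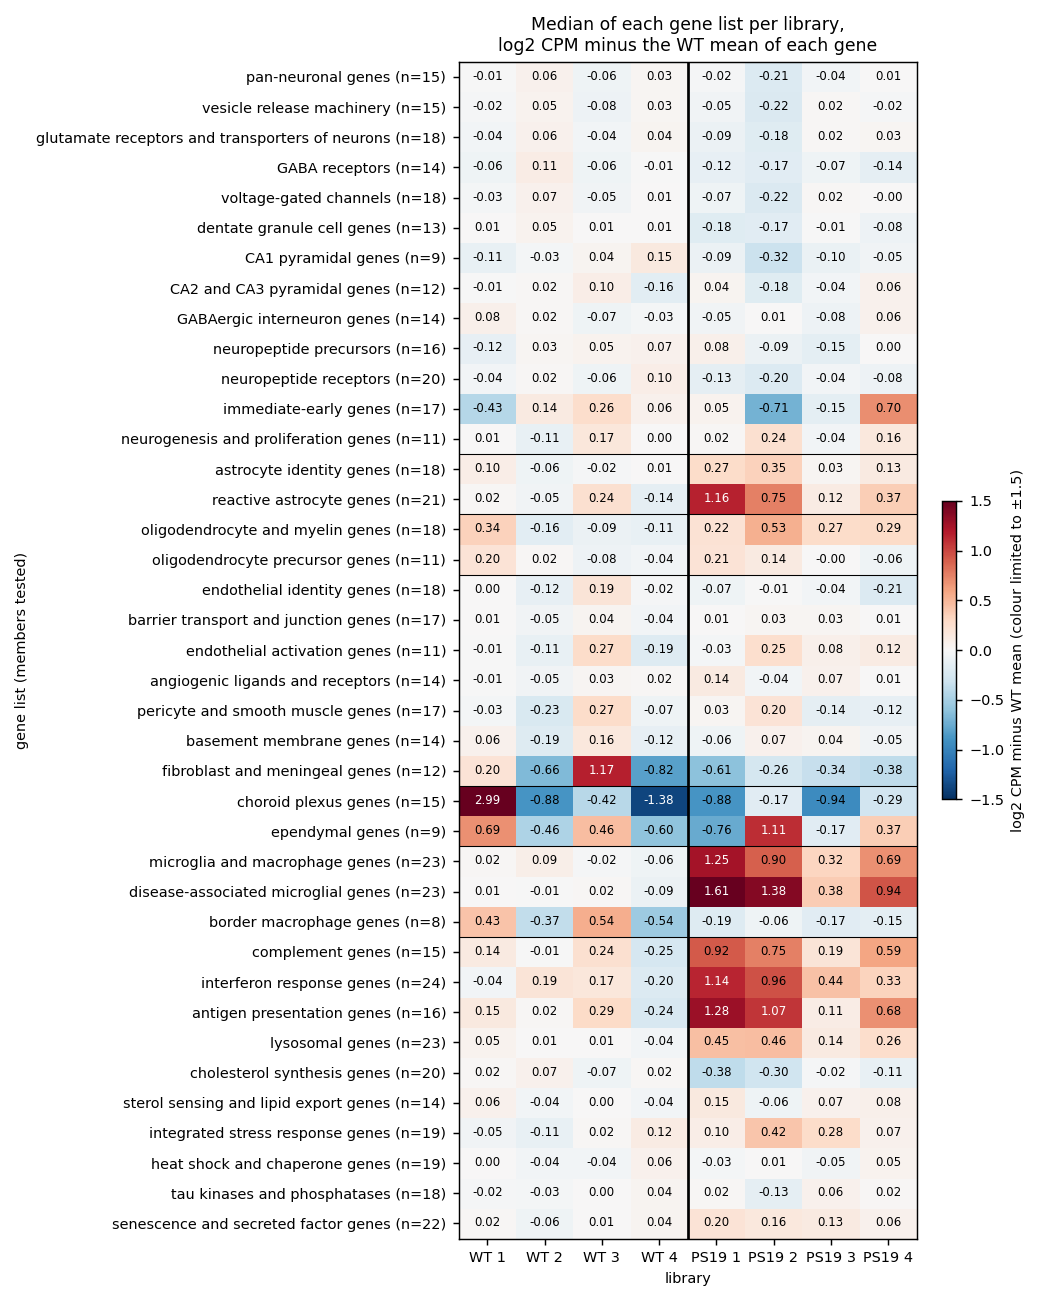
Median of each gene list in each library, as log2 CPM minus the WT mean of each gene; rows are lists with the number of members tested, columns the 8 libraries, and colour is limited to the range of the scale bar. PS19 library 1 had medians of 1.16 in reactive astrocyte genes and 1.61 in disease-associated microglial genes, PS19 library 3 only 0.12 and 0.38, and WT library 1 stood apart in choroid plexus genes at 2.99.

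The gene whose promoter drives the transgene was examined first. Prnp (chromosome 2, 131909928 to 131938429, GRCm38), encoding the prion protein, stood at 1940, 1500, 1970 and 1670 CPM in PS19 and at 1060, 989, 1040 and 998 CPM in WT. All PS19 libraries lay above all WT libraries, and Prnp rose by 0.79 ± 0.07 on the log2 scale (edgeR adjusted p = 1.24e-06). Whether transgene reads entered these counts was not tested. The mouse gene Mapt (chromosome 11, 104231390 to 104332090), the endogenous tau gene, had 494, 512, 557 and 477 CPM in PS19 and 558, 464, 480 and 526 CPM in WT, with a log2 fold change of 0.01 ± 0.06. Its groups overlapped throughout. Cdkn2a, which encodes p16 together with another product, had 8, 4, 1 and 5 counts in the PS19 libraries and 1, 1, 4 and 2 in the WT libraries. These counts did not pass the filter of the fit across genes, and an exact two-sided permutation test over the 4 against 4 libraries gave p = 0.2, where 0.0286 is the smallest p that the design allows.

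Neuronal identity and synaptic genes differed little between the groups. Of the 15 pan-neuronal genes 0 were called by edgeR, 0 had an unadjusted p under 0.05, and DESeq2 and limma-voom called 0 as well. Below, the 3 tools means edgeR, DESeq2 and limma-voom. Their log2 fold changes ran from -0.13 to 0.02 with a median of -0.06. Snap25, a SNARE protein of synaptic vesicle fusion, had 1990, 1770, 2100 and 2040 CPM in PS19 against 2030, 2390, 2020 and 2040 CPM in WT (log2 -0.10 ± 0.06). Syp, the vesicle protein synaptophysin, had a log2 fold change of -0.03 ± 0.05. The 15 genes of the vesicle release machinery, among them the calcium sensor Syt1 (-0.07 ± 0.07) and the complexin Cplx2 (-0.10 ± 0.05), all had negative values, the largest -0.15, with a median of -0.05 and 0 calls by the 3 tools or at an unadjusted p under 0.05.

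These small negative medians were not shared evenly among the libraries. The pan-neuronal median was -0.21 in PS19 library 2 and -0.02, -0.04 and 0.01 in the other PS19 libraries, within the WT span of -0.06 to 0.06. The vesicle release list was similar, with -0.22 in PS19 library 2 and -0.05 to 0.02 in the others. That library also had the highest summed level of myelin genes, 4930 CPM against 2920 to 4220 CPM in the other 7 libraries, and of ependymal genes, 88.4 CPM against 27.6 to 67.5 CPM. The part of these other cell types in the neuronal medians was not tested.

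Glutamate is the main excitatory transmitter. The list of its receptors, which also holds the transporter gene Slc17a7 and the scaffold genes Shank3 and Homer1, gave 0 calls among 18 genes. At an unadjusted p under 0.05 there were 0, DESeq2 and limma-voom called 0, and the median was -0.06. Slc17a7, the vesicular glutamate transporter, had 1840, 1340, 1800 and 1890 CPM in PS19 and 1760, 1780, 1810 and 1750 CPM in WT, so that PS19 library 2 alone lay below the WT range. Gria1, an AMPA receptor subunit, had a log2 fold change of -0.07 ± 0.07.

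Receptors for GABA, listed together with the scaffold gene Gphn, lay slightly lower, with 13 of 14 negative values and a median of -0.12. However, edgeR called 0 of these 14 genes, while 4 had an unadjusted p under 0.05. Gabrd, the delta subunit of extrasynaptic GABA-A receptors on dentate granule cells, had 16.2, 15.0, 16.7 and 16.9 CPM in PS19 and 20.2, 21.7, 20.4 and 18.6 CPM in WT. Its groups did not overlap, as in 1.47% of all genes in this direction and 5.04% in either direction, and its log2 fold change was -0.32 ± 0.08 (edgeR adjusted p = 0.0549). DESeq2 called it (adjusted p = 0.0227), the only member called by DESeq2 or limma-voom. Gabbr1, a subunit of the GABA-B receptor, had a log2 fold change of -0.05 ± 0.06.

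Among 18 voltage-gated channels 0 were called by edgeR, DESeq2 or limma-voom and 1 had an unadjusted p under 0.05, and the median was -0.06. That gene was Kcna4, an A-type potassium channel, with 44.9, 32.5, 33.3 and 37.5 CPM in PS19 and 36.4, 54.0, 52.7 and 45.0 CPM in WT (log2 -0.35 ± 0.12). WT library 1 was low among its group, and without it Kcna4 passed at log2 -0.46 ± 0.11 (edgeR adjusted p = 0.0416). Kcnd2, another A-type channel, was the one member without overlap (log2 -0.13 ± 0.07) and was not called. Over all genes 1.47% did not overlap in this direction and 5.04% in either direction.

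The fields of the hippocampus were compared by their marker genes. The 13 dentate granule cell genes had a median of -0.12, with 12 negative values, 0 calls by any of the 3 tools and 1 gene at an unadjusted p under 0.05. Calb1, a calcium buffer of granule cells, had 148, 140, 163 and 149 CPM in PS19 and 149, 171, 168 and 186 CPM in WT (log2 -0.17 ± 0.08), while Pitpnm2 had -0.02 ± 0.06. In PS19 libraries 1 and 2 the dentate medians were -0.18 and -0.17, in libraries 3 and 4 they were -0.01 and -0.08, and in WT they ran from 0.01 to 0.05. The 9 CA1 genes had a median of -0.09, with Mpped1 at -0.07 ± 0.08 and Itpka, a kinase of inositol phosphates in dendritic spines, at 0.04 ± 0.13. The 12 genes of CA2 and CA3 had a median of -0.02, with Dkk3 and Cpne4 at -0.02 ± 0.07 and -0.03 ± 0.08. In both CA lists 0 genes were called by the 3 tools, and 1 and 0 had an unadjusted p under 0.05.

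Interneuron markers were as even. Of 14 genes 7 had positive and 7 negative values, the median was -0.01, 0 were called by edgeR, DESeq2 or limma-voom and 1 had an unadjusted p under 0.05. Gad1, which makes GABA, had 372, 387, 367 and 389 CPM in PS19 and 400, 423, 351 and 368 CPM in WT (log2 -0.03 ± 0.05). Pvalb and Sst, which mark the main interneuron classes, had -0.05 ± 0.10 and 0.01 ± 0.10.

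The neuronal genes that fell were neuropeptide receptors. Among 20 receptors 2 were lower by edgeR and 16 had negative values, with a median of -0.13. Npy1r, a receptor for neuropeptide Y, had 34.2, 27.4, 30.5 and 28.9 CPM in PS19 and 35.7, 41.7, 39.2 and 37.9 CPM in WT. It fell by 0.35 ± 0.09 on the log2 scale (edgeR adjusted p = 0.0419), and every PS19 library lay below every WT library. Prokr2, a receptor for prokineticins, had 4.58, 4.70, 3.72 and 4.89 CPM in PS19 and 5.21, 7.70, 7.33 and 6.34 CPM in WT. It fell by 0.57 ± 0.14 on the log2 scale (edgeR adjusted p = 0.0447), again without overlap. Both calls were close to the threshold: of the 18 other settings tried, Npy1r kept its call in 6 and Prokr2 in 5, and without PS19 library 3 the adjusted p was 0.0553 and 0.105. Npy2r and Npy5r, further receptors of the same peptide, had -0.16 ± 0.08 and -0.20 ± 0.12 and were not called.

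The peptide precursors did not pass the test. Among 16 precursors 0 were called by the 3 tools and 0 had an unadjusted p under 0.05, with a median of -0.06. Npy had 29.4, 25.1, 22.4 and 26.1 CPM in PS19 and 19.9, 25.3, 25.8 and 29.7 CPM in WT (log2 0.03 ± 0.15). Chgb and Vgf, proteins of dense-core vesicles, had 0.05 ± 0.09 and 0.01 ± 0.14. In Vgf PS19 library 2 stood alone at 214 CPM against 347 to 367 CPM in the other PS19 libraries and 269 to 369 CPM in WT.

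Immediate-early genes, which follow recent neuronal activity, varied more within a group than between groups. None of the 17 was called by edgeR, DESeq2 or limma-voom, 0 had an unadjusted p under 0.05, and the median was 0.02. Fos had 27.4, 11.3, 12.1 and 39.0 CPM in PS19 and 10.9, 22.8, 24.8 and 19.4 CPM in WT. Egr1 had 161, 96.3, 130 and 243 CPM in PS19 and 111, 168, 173 and 156 CPM in WT (log2 0.05 ± 0.29). The list's medians were 0.05, -0.71, -0.15 and 0.70 in the PS19 libraries and -0.43, 0.14, 0.26 and 0.06 in WT, so that PS19 libraries 2 and 4 lay on opposite sides of the whole WT span. Jun was less variable, at log2 0.13 ± 0.07. Promoter windows were found in RefSeq for 13 genes of this list, and 2 held the cyclic AMP response element TGACGTCA (15.4%, against 3.41% of the tested genes with a window and 1.79% of all windows).

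Genes of neurogenesis and cell division gave 0 calls by the 3 tools among 11 tested and 0 at an unadjusted p under 0.05, with a median of 0.09. Sox2, a factor of neural stem cells and astrocytes, had 0.10 ± 0.07, and the replication clamp Pcna 0.08 ± 0.06. Ccnb1 and Cdk1, with 28 and 27 counts over the PS19 libraries and 10 and 6 over the WT libraries, were too low to be tested.

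**Figure D2:**
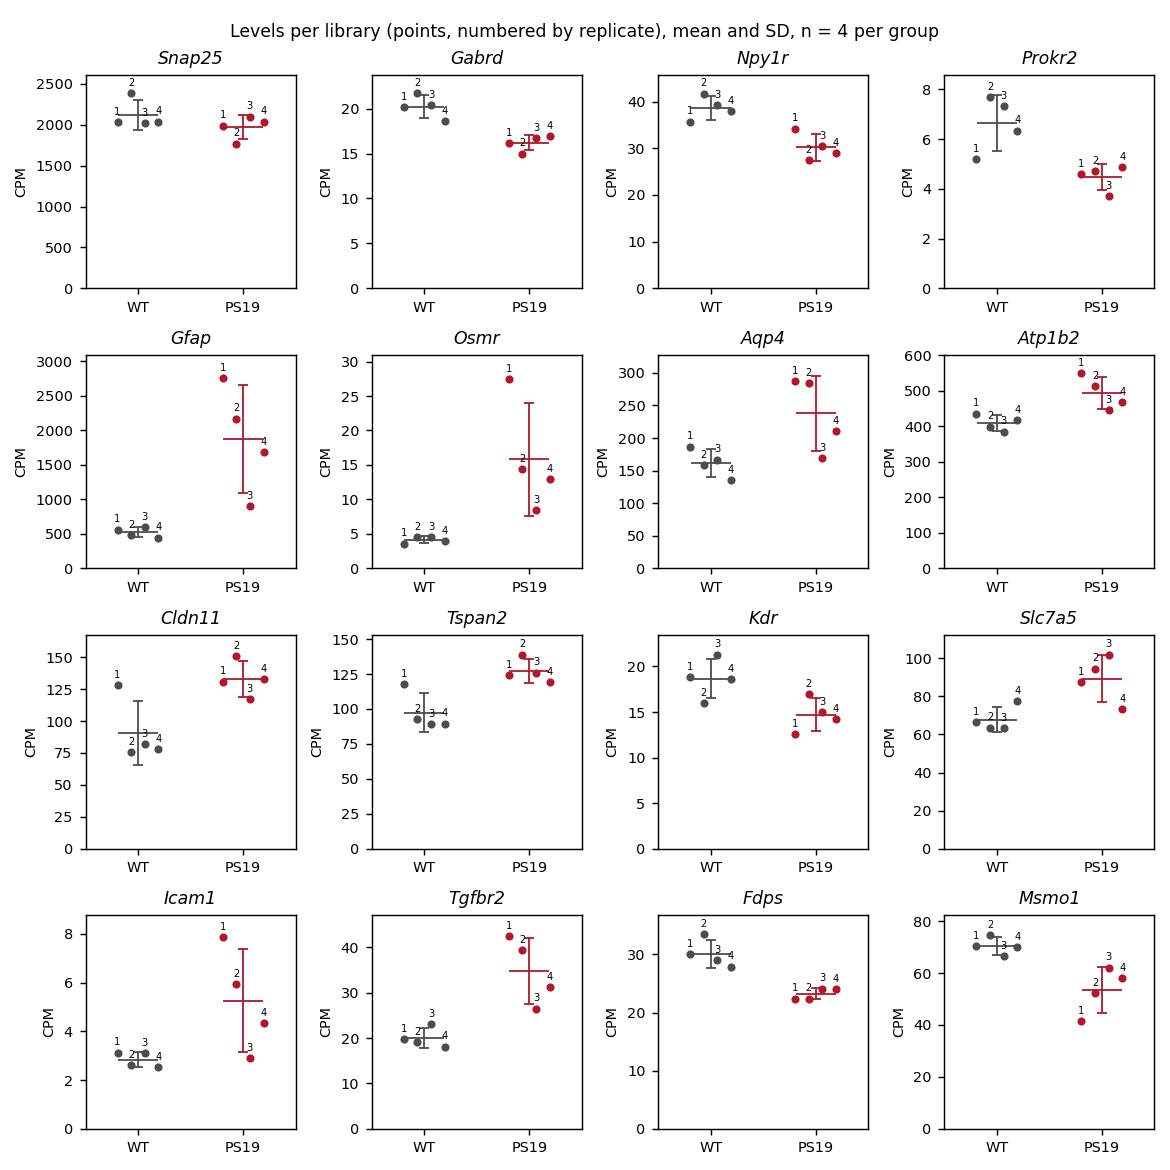
Levels of 16 genes in CPM (vertical axes, each from 0) in the WT and PS19 libraries; points are libraries numbered by replicate, bars the mean and SD of 4 libraries. Npy1r, Prokr2, Gabrd, Fdps and Msmo1 lay lower in all PS19 libraries than in any WT library, and Gfap ran from 898 to 2750 CPM in PS19 against 448 to 600 CPM in WT.

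Astrocyte genes lay higher in PS19, and few passed the test. All 18 astrocyte identity genes had positive log2 fold changes, from 0.04 to 0.55 with a median of 0.20, and 11 had an unadjusted p under 0.05. One passed the test over all genes. Atp1b2, a subunit of the astrocytic sodium pump, had 549, 513, 446 and 469 CPM in PS19 and 436, 399, 385 and 418 CPM in WT. It rose by 0.27 ± 0.06 on the log2 scale (edgeR adjusted p = 0.0281) without overlap between the groups, and it kept its call in 11 of 18 settings. One more member, against 3.57% of all genes in this direction, did not overlap: Slc1a2, the main glutamate transporter of astrocytes, with 3340, 3770, 3120 and 3210 CPM in PS19 and 2780, 3070, 2780 and 3060 CPM in WT (log2 0.20 ± 0.08, edgeR adjusted p = 0.386).

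The size of this shift differed between PS19 libraries. The medians of the identity list were 0.27, 0.35, 0.03 and 0.13 in PS19 libraries 1 to 4 and between -0.06 and 0.10 in WT. Aqp4, the water channel of astrocytic endfeet on vessels, had 287, 284, 169 and 211 CPM in PS19 and 187, 158, 167 and 135 CPM in WT, so PS19 library 3 lay inside the WT range (log2 0.55 ± 0.15, edgeR adjusted p = 0.0911). Without PS19 library 3, 6 identity genes were called higher, among them Aqp4 (0.69 ± 0.11, edgeR adjusted p = 0.00214), the endfoot protein Mlc1 (0.48 ± 0.09) and its partner Hepacam (0.27 ± 0.07). Atp1b2 lost its call without PS19 library 1 and without PS19 library 2. DESeq2 called 4 on all libraries and limma-voom 1.

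Differences were larger in reactive astrocyte genes. Of 21 tested 5 were higher by edgeR and 19 had positive values, with a median of 0.69. Gfap, the filament protein, had 2750, 2170, 898 and 1680 CPM in PS19 and 563, 484, 600 and 448 CPM in WT, and rose by 1.84 ± 0.26 on the log2 scale (edgeR adjusted p = 0.00338). The groups did not overlap, and PS19 library 3 lay nearest to WT. Osmr, the oncostatin M receptor, had 27.5, 14.4, 8.42 and 13 CPM in PS19 and 3.60, 4.59, 4.53 and 3.97 CPM in WT (log2 1.92 ± 0.26, edgeR adjusted p = 0.0011). Ggta1, a galactosyltransferase, rose by 1.30 ± 0.25, Aspg, an asparaginase, by 1.56 ± 0.33 and the cytokine gene Clcf1 by 1.37 ± 0.34, Clcf1 at 0.706 to 1.35 CPM in PS19 against 0.268 to 0.474 CPM in WT.

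Other members of the reactive list passed in some settings. DESeq2 called 6 genes of the list and limma-voom 2. Vim, the intermediate filament vimentin, had 120, 101, 49.9 and 70.7 CPM in PS19 and 49.8, 36.3, 53.3 and 36.6 CPM in WT (log2 0.96 ± 0.23, edgeR adjusted p = 0.0589). DESeq2 called it on all libraries (adjusted p = 0.00179), and also S1pr3 (adjusted p = 0.0263). Without PS19 library 3, edgeR called 9 reactive genes, with Vim at 1.14 ± 0.17, the hyaluronan receptor Cd44 at 1.07 ± 0.20, S1pr3 at 0.95 ± 0.20 and Gbp2 at 0.98 ± 0.22 newly among them, while without WT library 1 there were 3, with Aspg and Clcf1 lost. When only the 8 compared libraries were fitted, 0 genes of either astrocyte list were called. Serpina3n, a protease inhibitor often used as a marker of reactive astrocytes, was split in WT, with 58.4, 162, 64.1 and 157 CPM against 220, 217, 172 and 105 CPM in PS19 (log2 0.69 ± 0.47). Aspg overlapped between the groups and kept its call in 9 of 18 settings. It lost the call without PS19 library 1 and without PS19 library 2, where Gfap, Osmr and Ggta1 kept theirs. Lcn2, Timp1 and Steap4 had 29, 50 and 21 counts in all over the PS19 libraries and 7, 10 and 13 over the WT libraries and were not tested.

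Oligodendrocyte genes lay higher in PS19 on the whole, and 1 WT library decided how many passed. All 18 genes of oligodendrocytes and myelin had positive log2 fold changes, from 0.14 to 0.55 with a median of 0.32, and 13 had an unadjusted p under 0.05, yet edgeR and limma-voom called 0 over all genes and DESeq2 4. Mbp, myelin basic protein, had 1080, 1500, 1130 and 1240 CPM in PS19 and 1190, 774, 1060 and 888 CPM in WT (log2 0.34 ± 0.12). WT library 1 was the highest of its group.

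The same library stood apart over the list. Its median was 0.34, against -0.16, -0.09 and -0.11 in WT libraries 2 to 4 and 0.22, 0.53, 0.27 and 0.29 in the PS19 libraries. Without WT library 1, 8 of 18 genes were called higher and the median was 0.42. Cldn11, a tight junction protein of myelin, had the largest of these changes, with 131, 151, 117 and 133 CPM in PS19 against 75.5, 82.0 and 77.8 CPM in WT libraries 2 to 4 and 128 CPM in WT library 1. Its log2 fold change was 0.55 ± 0.15 (edgeR adjusted p = 0.0934) with all libraries and 0.75 ± 0.08 without WT library 1. The others were Mog, Mag, Cnp, Trf, Tspan2 and the transcription factors Myrf and Sox10, at 0.41 to 0.62. Tspan2 and Opalin did not overlap between the groups even with all libraries, as 3.57% of all genes did not in this direction.

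Oligodendrocyte precursors did not share this shift past the test. Of their 11 genes 0 were called by the 3 tools, 2 had an unadjusted p under 0.05 and the median was 0.06. Pdgfra, the receptor that defines these cells, had 71.7, 72.2, 73.1 and 61.9 CPM in PS19 and 66.6, 75.6, 61.5 and 69.7 CPM in WT (log2 0.03 ± 0.07), and Tnr, a matrix protein, had -0.05 ± 0.08. Gpr17, a marker of cells about to differentiate, had the lowest p of the list, with 40.1 to 53.1 CPM in PS19 and 31.8 to 43.4 CPM in WT (0.32 ± 0.11, edgeR adjusted p = 0.227).

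Vessel genes were mostly even, and the 4 that rose are also used by other cell types. Endothelial identity genes had 0 calls by the 3 tools among 18, 1 at an unadjusted p under 0.05 and a median of -0.08. Flt1, a receptor of vascular growth factors, had 54.3, 59.2, 52.2 and 45.4 CPM in PS19 and 53.2, 51.1, 56.9 and 51.6 CPM in WT (log2 -0.01 ± 0.08), and the phosphatase Ptprb had -0.09 ± 0.15. Kdr, the main receptor for VEGF, had 12.6, 17.0, 15.0 and 14.2 CPM in PS19 and 18.8, 16, 21.3 and 18.6 CPM in WT. PS19 library 2 and WT library 2 overlapped, and the log2 fold change of -0.34 ± 0.10 was not called (edgeR adjusted p = 0.108).

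Transporters and junctions of the blood-brain barrier gave 1 call among 17, with a median of 0.01. Slc7a5, a carrier of large neutral amino acids also used by other cells, had 87.5, 94.6, 102 and 73.5 CPM in PS19 and 66.5, 63.6, 63.5 and 77.7 CPM in WT. It rose by 0.40 ± 0.10 on the log2 scale (edgeR adjusted p = 0.0419) although PS19 library 4 lay below WT library 4, and it kept its call in 5 of 18 settings. Its partner chain Slc3a2 had 129, 124, 120 and 113 CPM in PS19 and 106, 96.9, 109 and 110 CPM in WT. It did not overlap, like 3.57% of all genes in this direction, and was not called (0.20 ± 0.06, edgeR adjusted p = 0.0945). The glucose transporter Slc2a1 was called without WT library 1, at 0.29 ± 0.07, while Slc7a5 then was not. Bsg, a chaperone of lactate carriers, had 0.04 ± 0.15, and the tight junction gene Ocln -0.01 ± 0.18.

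Genes of endothelial activation gave 1 call among 11, with a median of 0.09. Socs3, an inhibitor of cytokine signalling that many cell types induce, had 6.30, 3.84, 2.32 and 2.34 CPM in PS19 and 1.46, 1.53, 2.16 and 0.966 CPM in WT, and rose by 1.27 ± 0.31 (edgeR adjusted p = 0.0425, call kept in 8 of 18 settings). Icam1, an adhesion molecule of activated endothelium, microglia and astrocytes, had 7.86, 5.93, 2.91 and 4.34 CPM in PS19 and 3.13, 2.61, 3.11 and 2.52 CPM in WT (0.89 ± 0.23, edgeR adjusted p = 0.0529). PS19 library 3 lay inside the WT range, and without it Icam1 passed at 1.09 ± 0.20. Vcam1, the other main adhesion molecule, had 0.15 ± 0.27. The selectins Sele and Selp had 1 and 3 counts over the PS19 libraries and 3 and 5 over the WT libraries.

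Among angiogenic ligands and receptors 2 of 14 were higher, with a median of 0.03. Tgfbr2, a receptor of transforming growth factor beta, had 42.4, 39.3, 26.5 and 31.2 CPM in PS19 and 19.8, 19.1, 23 and 18.1 CPM in WT, and rose by 0.80 ± 0.13 (edgeR adjusted p = 0.00338). The ligand Tgfb1 had 11.0, 9.25, 7.12 and 6.03 CPM in PS19 and 3.86, 4.68, 5.06 and 5.05 CPM in WT (0.84 ± 0.18, edgeR adjusted p = 0.0151). In both genes every PS19 library lay above every WT library. Microglia also express both. Vegfa (0.02 ± 0.10) and Angpt1 (0.51 ± 0.14, edgeR adjusted p = 0.0705) were not called, but Angpt1 was by DESeq2 (adjusted p = 0.0239) and by edgeR without PS19 library 3 (0.60 ± 0.14, adjusted p = 0.0228).

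The vessel wall showed little. Pericyte and smooth muscle genes had 0 calls by the 3 tools among 17, 1 at an unadjusted p under 0.05 and a median of -0.03, with Rgs5 at 0.09 ± 0.14 and Vtn at -0.22 ± 0.23. Basement membrane genes had 0 calls by edgeR and limma-voom among 14, 1 by DESeq2, 1 at an unadjusted p under 0.05 and a median of -0.06. That gene was Sparc, a matrix protein that microglia and astrocytes also make, with 342, 300, 257 and 278 CPM in PS19 and 243, 217, 242 and 264 CPM in WT (0.29 ± 0.08, edgeR adjusted p = 0.0814). Agrn had -0.01 ± 0.06.

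Tissue at the edge of the dissection varied between WT libraries. The summed level of 15 choroid plexus genes was 976 CPM in WT library 1 and 46.9 to 81.5 CPM in the other 7 libraries, and Ttr, the thyroid hormone carrier of the choroid plexus, had 713 CPM there against 16.8 to 21.3 CPM in the other WT libraries and 7.71 to 30.8 CPM in PS19. The list's median of -1.61 became 0.31 without WT library 1, and 0 genes were called by the 3 tools or had an unadjusted p under 0.05. Kl, the klotho gene, followed the same pattern at 73.3 CPM in WT library 1 against 21.7 to 28.4 CPM elsewhere.

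Fibroblast and meningeal genes summed to 208, 106, 277 and 103 CPM in WT and to 111 to 147 CPM in PS19, with a median of -0.73, 0 calls by the 3 tools among 12 and 2 at an unadjusted p under 0.05. Igf2 was high in WT libraries 1 and 3, at 82.3 and 74.4 CPM against 20.5 to 30.1 CPM in the other 6 libraries, while Dcn had 0.04 ± 0.24. Ependymal genes, with a median of 0.19, had 0 calls by the 3 tools or at an unadjusted p under 0.05 among 9. Foxj1, the regulator of motile cilia, had 12.5, 27.2, 16.5 and 20.3 CPM in PS19 and 25.3, 9.77, 20.6 and 11.8 CPM in WT, and Ccdc153 had 0.14 ± 0.52.

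**Figure D3:**
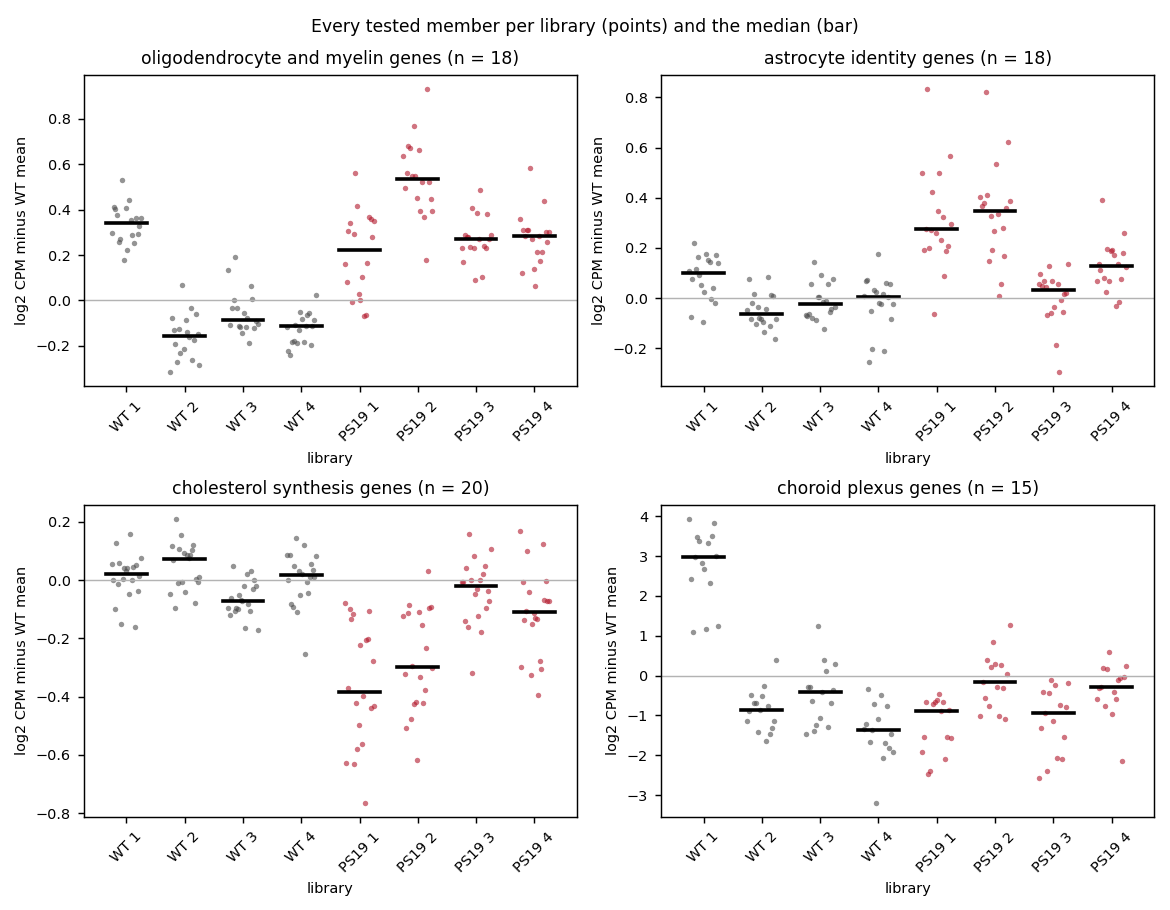
Each tested member of 4 lists in each library (points) and the list's median (bars), as log2 CPM minus the WT mean of that gene. Myelin genes of WT library 1 (median 0.34) lay among the PS19 libraries, cholesterol synthesis genes were lowest in PS19 libraries 1 and 2 (-0.38 and -0.30), and choroid plexus genes were high in WT library 1.

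Microglia were the cell type with the most calls. Of 23 general microglial and macrophage genes 15 were higher and 1 lower, with a median of 0.87. When only the 8 compared libraries were fitted, 2 were called, both higher. Their summed level was 410 to 454 CPM in WT and 973, 807, 547 and 692 CPM in PS19 libraries 1 to 4, and each was detected in every library. Laptm5, a lysosomal membrane protein of blood-derived and microglial cells, had 92.5, 77.5, 47.1 and 65.1 CPM in PS19 and 30.4 to 33.3 CPM in WT (log2 1.12 ± 0.15, edgeR adjusted p = 0.0011). Fcgr3, Tyrobp and Ly86 rose by 1.33 ± 0.19, 1.65 ± 0.23 and 1.67 ± 0.25. Each of these 4 was lowest in PS19 library 3.

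The list did not rise as one. Tmem119 and P2ry12, markers of homeostatic microglia, had log2 fold changes of 0.02 ± 0.08 and -0.01 ± 0.08, with Tmem119 at 23.3, 18.6, 23.7 and 22.6 CPM in PS19 and 22.8, 20.3, 21.5 and 22.5 CPM in WT. P2ry13 had 0.10 ± 0.12. Crybb1, a crystallin gene of microglia, was the one that fell, with 1.24, 0.759, 1.46 and 1.52 CPM in PS19 and 3.54, 1.98, 3.85 and 2.85 CPM in WT (-1.30 ± 0.25, edgeR adjusted p = 0.00887). Its groups did not overlap. Among 23 disease-associated genes 14 were higher and all 23 had positive values, with a median of 1.19, and 2 were called when only the 8 compared libraries were fitted. Cst7, an inhibitor of lysosomal proteases, had 9.53, 9.87, 0.971 and 6.03 CPM in PS19 and 0.208, 0.225, 0.0527 and 0.268 CPM in WT, with PS19 library 3 far below its group but above WT. Ccl6, Clec7a and Cd52 rose by 3.07 ± 0.34, 3.79 ± 0.43 and 2.81 ± 0.39.

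Genes of macrophages at the brain's borders lay on the other side and did not pass the test. Of 8 genes 0 were called by the 3 tools or had an unadjusted p under 0.05, all had negative values and the median was -0.37. Mrc1, the mannose receptor, had 1.72, 2.33, 2.10 and 2.28 CPM in PS19 and 2.97, 1.40, 5.96 and 0.805 CPM in WT, and Stab1 had -0.04 ± 0.17. Mrc1 was highest in WT libraries 1 and 3, the libraries with the most meningeal RNA. The part of meningeal tissue in these values was not tested.

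**Figure D4:**
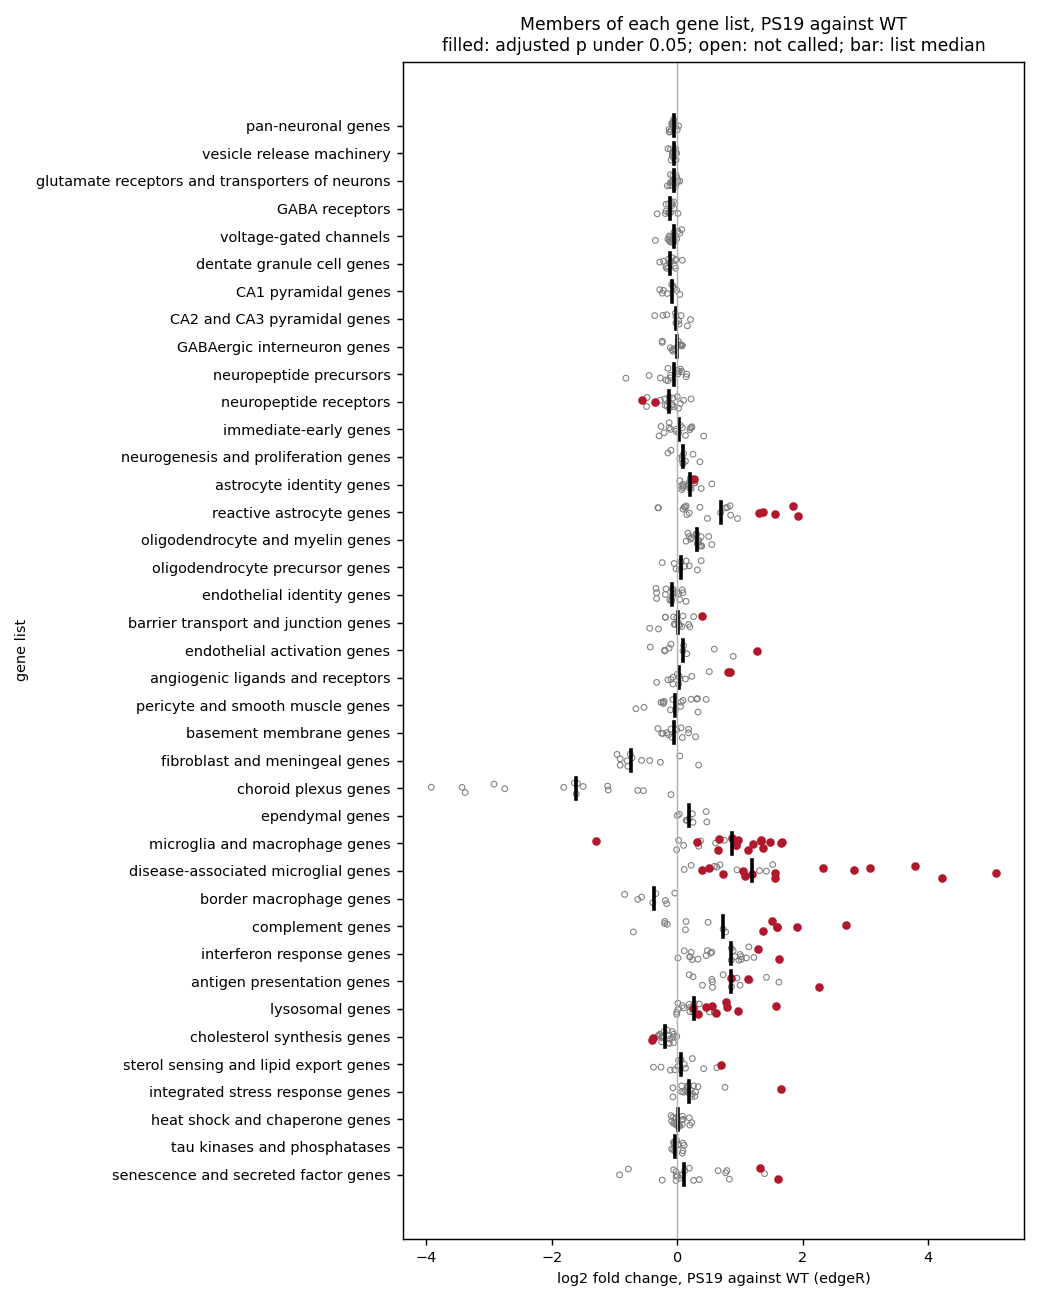
Log2 fold change (PS19 against WT, edgeR) of every tested member of the 39 lists; each point is a gene, filled points passed an adjusted p under 0.05 and black bars are list medians. Neuronal lists lay close to 0 with medians from -0.13 to 0.09, myelin and astrocyte identity lists at 0.32 and 0.20, and the microglial lists at 0.87 and 1.19.

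Several immune lists held genes that rose with the microglial ones. Of 15 complement genes 6 were higher, with a median of 0.73, and 1 when only the 8 compared libraries were fitted. C4b, made by astrocytes and other cells, had 311, 277, 107 and 183 CPM in PS19 and 49.1 to 68.8 CPM in WT (log2 1.90 ± 0.27, edgeR adjusted p = 0.00305). C1qb, a chain of the recognition molecule C1q, rose by 1.59 ± 0.25 and Itgb2, the shared chain of complement receptors, by 1.37 ± 0.21. C3ar1, the receptor for the C3a fragment, had 8.45, 9.25, 4.48 and 7.01 CPM in PS19 and 0.896 to 1.23 CPM in WT (2.68 ± 0.23, edgeR adjusted p = 1.24e-06). The regulator Serping1 did not pass, at 0.13 ± 0.35. The microglial markers given above moved with these genes, and their part in the result was not tested.

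Interferon response genes all lay higher, and few passed. All 24 had positive values with a median of 0.86, 16 had an unadjusted p under 0.05 and 2 were called. Ifit3b, an antiviral RNA-binding protein, had 8.88, 8.54, 5.66 and 5.11 CPM in PS19 and 2.87, 3.15, 3.27 and 2.31 CPM in WT (log2 1.28 ± 0.21, edgeR adjusted p = 0.00227). Cxcl10, a chemokine for T cells, had 3.07, 2.04, 2.43 and 1.41 CPM in PS19 and 0.573, 1.17, 0.527 and 0.591 CPM in WT (1.62 ± 0.36, edgeR adjusted p = 0.0212, call kept in 11 of 18 settings). Neither overlapped between the groups. In these genes PS19 library 3 was not apart: the list's medians were 1.14, 0.96, 0.44 and 0.33 in PS19 libraries 1 to 4, where library 4 was the lowest.

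Promoters of this list share a motif, and those of the called members are shown with it in capitals. Windows of 300 bases, from 250 before to 50 after the annotated start, were taken from RefSeq (GRCm38.p6) and were found for 19 of the 24 genes. The core of the interferon-stimulated response element, GAAANNGAA, searched on both strands, was in 14 of these 19 (73.7%), against 8.6% of the tested genes with a window and 8.56% of all 32851 windows of that length. In Ifit3b (chr19:34607707-34608006, plus strand) it began at -187, -153 and -134 from the start, each on the opposite strand, and in Cxcl10 (chr5:92348840-92349139, minus strand) at -213.
Ifit3b: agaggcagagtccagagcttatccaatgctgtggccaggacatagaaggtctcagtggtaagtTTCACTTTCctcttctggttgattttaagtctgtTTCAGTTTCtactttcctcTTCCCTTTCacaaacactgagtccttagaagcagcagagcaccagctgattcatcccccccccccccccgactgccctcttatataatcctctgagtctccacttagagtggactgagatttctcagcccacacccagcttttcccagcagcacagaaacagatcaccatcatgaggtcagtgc
Cxcl10: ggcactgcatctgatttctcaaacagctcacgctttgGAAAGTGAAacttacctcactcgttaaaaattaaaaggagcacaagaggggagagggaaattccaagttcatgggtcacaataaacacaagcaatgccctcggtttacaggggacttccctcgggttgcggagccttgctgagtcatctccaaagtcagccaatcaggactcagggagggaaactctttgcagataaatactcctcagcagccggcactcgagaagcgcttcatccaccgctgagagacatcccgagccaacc
A match describes the letters of the window and is not a measured binding site.

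Antigen presentation genes had 16 of 16 positive values, a median of 0.86 and 3 calls, all higher. DESeq2 called 7 and the fit on the 8 compared libraries 0. Psmb8, a subunit of the immunoproteasome, had 9.32, 7.12, 4.59 and 4.89 CPM in PS19 and 2.04 to 3.53 CPM in WT (log2 1.13 ± 0.23, edgeR adjusted p = 0.0102). B2m, the light chain of class I molecules, rose by 0.86 ± 0.19 and Cd74, the invariant chain of class II, by 2.25 ± 0.45. Cd74 had 25.8, 25.5, 5.45 and 19.6 CPM in PS19 and 5.06, 2.66, 4.90 and 3.49 CPM in WT, so that PS19 library 3 lay just above the WT range. B2m kept its call in 5 of 18 settings and Cd74 in 7. Both lost it without PS19 library 1 and without PS19 library 2. Without PS19 library 3, 8 genes of the list were called, with the class I genes H2-K1 and H2-D1 (1.04 ± 0.17 and 1.37 ± 0.22) and the class II genes H2-Aa and H2-Ab1 (1.70 ± 0.32 and 1.89 ± 0.39) among them.

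Lysosomal genes rose in 9 of 23, with a median of 0.27, and 0 were called when only the 8 compared libraries were fitted, 11 by DESeq2 and 8 by limma-voom. Ctss, a protease of microglial lysosomes, had 190, 150, 70.7 and 120 CPM in PS19 and 37.4 to 51.5 CPM in WT (log2 1.58 ± 0.24, edgeR adjusted p = 0.00461). Grn, encoding progranulin, rose by 0.77 ± 0.13 and Hexa, a subunit of hexosaminidase, by 0.61 ± 0.10. Ctsa, which protects other lysosomal enzymes, had 120, 108, 84.0 and 95.9 CPM in PS19 and 73.0 to 77.7 CPM in WT (0.45 ± 0.08, edgeR adjusted p = 0.0067). Hexa and Lamp1, a main protein of the lysosomal membrane, are used by most cell types, and Lamp1 rose by 0.33 ± 0.06 (edgeR adjusted p = 0.00693). Members that did not pass included the proton pump subunits Atp6v0d1 and Atp6v1b2 and the channel Mcoln1, with log2 fold changes of -0.01 ± 0.04, -0.01 ± 0.05 and 0.01 ± 0.05. The microglial markers given above moved with the called members, and their part in the result was not tested.

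The palindrome TCACGTGA, which contains the core CACGTG bound by regulators of lysosomal genes, was in the promoter windows of 3 of 17 lysosomal genes (17.6%, against 2.01% of the tested genes with a window and 0.974% of all windows). Of these genes, Ctsa was called, and Mcoln1 and Atp6v0d1 were the ones just given near 0. The window of Ctsa (chr2:164833523-164833822, plus strand) is shown because it holds the match at -13 and again at 5.
Ctsa: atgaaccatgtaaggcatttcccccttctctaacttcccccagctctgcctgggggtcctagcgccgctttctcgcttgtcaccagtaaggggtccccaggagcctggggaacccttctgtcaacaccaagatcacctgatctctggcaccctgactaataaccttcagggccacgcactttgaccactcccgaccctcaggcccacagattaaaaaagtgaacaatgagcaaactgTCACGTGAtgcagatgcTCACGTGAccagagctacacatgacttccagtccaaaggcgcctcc

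Cholesterol synthesis genes lay lower in PS19. All 20 genes of the pathway had negative log2 fold changes, from -0.40 to -0.01 with a median of -0.19, 9 had an unadjusted p under 0.05 and 2 were called lower, against 0.055% of all genes. Fdps, which makes farnesyl diphosphate, had 22.4, 22.4, 24.1 and 24.0 CPM in PS19 and 30.1, 33.5, 29.0 and 27.9 CPM in WT, and fell by 0.38 ± 0.08 on the log2 scale (edgeR adjusted p = 0.0175). Msmo1, a sterol demethylase, had 41.4, 52.4, 62.1 and 57.9 CPM in PS19 and 70.4, 74.6, 66.4 and 70 CPM in WT, and fell by 0.40 ± 0.09 (edgeR adjusted p = 0.0332). In both genes all PS19 libraries lay below all WT libraries. Fdps kept its call in 13 of 18 settings and Msmo1 in 7. Both lost it without PS19 library 1 and without PS19 library 2.

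The pathway was lowest in the PS19 libraries with the highest levels of both microglial and astrocyte genes. Its medians were -0.38, -0.30, -0.02 and -0.11 in PS19 libraries 1 to 4 and lay between -0.07 and 0.07 in WT. Hmgcs1, an early enzyme of the pathway, had 168, 208, 259 and 211 CPM in PS19 and 260, 281, 239 and 260 CPM in WT (log2 -0.30 ± 0.10, edgeR adjusted p = 0.189). Without PS19 library 3 there were 5 calls, with Hmgcs1 at -0.41 ± 0.08, Fdft1 at -0.38 ± 0.08 and Sqle at -0.40 ± 0.10 newly among them, and without WT library 1 there was 1. The part of cell composition in these values was not tested. Among the promoter windows of 15 members, 2 held CACCCCAC, the core of a sterol regulatory element (13.3%, against 3.83% of the tested genes with a window and 2.87% of all windows). The window of Hmgcs1 (chr13:119690101-119690400, plus strand), with the match at -136, is shown as the better measured of the 2, the other being Acat2.
Hmgcs1: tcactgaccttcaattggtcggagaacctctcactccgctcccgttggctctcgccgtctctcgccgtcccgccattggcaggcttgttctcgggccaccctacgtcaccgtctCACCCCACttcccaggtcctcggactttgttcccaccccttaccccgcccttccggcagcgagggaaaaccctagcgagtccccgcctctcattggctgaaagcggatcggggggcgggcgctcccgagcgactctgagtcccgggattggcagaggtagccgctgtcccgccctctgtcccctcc

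Genes that sense and export sterols gave 1 call among 14, with a median of 0.06. Abca1, the exporter of cholesterol to apolipoproteins, had 99.3, 86.1, 59.4 and 78.4 CPM in PS19 and 50.5, 48.2, 55.8 and 45.7 CPM in WT (log2 0.69 ± 0.13, edgeR adjusted p = 0.0128, call kept in 13 of 18 settings). Apoe, the main apolipoprotein of the brain, had 3730, 3320, 1970 and 2720 CPM in PS19 and 2130, 1570, 2030 and 1840 CPM in WT (0.63 ± 0.15, edgeR adjusted p = 0.0558), and without PS19 library 3 it passed at 0.78 ± 0.10. Insig1, a target of the sterol-responsive factor SREBP2 as the synthesis genes are, had -0.26 ± 0.10, and the factor's own gene Srebf2 -0.11 ± 0.07.

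In the integrated stress response 1 of 19 genes was called, with 17 positive values, 6 at an unadjusted p under 0.05 and a median of 0.18. Atf3, a transcription factor of injured neurons and activated glia, had 5.17, 3.32, 1.94 and 3.91 CPM in PS19 and 0.938, 0.855, 1.11 and 1.66 CPM in WT. It rose by 1.65 ± 0.28 on the log2 scale without overlap (edgeR adjusted p = 0.003) and kept its call in all 18 settings. Atf4, the factor at the centre of that response, had 83.9, 120, 121 and 92.4 CPM in PS19 and 71.8, 73.7, 75.3 and 124 CPM in WT (0.28 ± 0.20), and Psat1, a serine synthesis enzyme, 0.16 ± 0.07. Heat shock and chaperone genes had 0 calls by the 3 tools among 19, 1 at an unadjusted p under 0.05 and a median of 0.01, with Hsp90ab1 at -0.03 ± 0.04 and Hsp90aa1 at -0.04 ± 0.05.

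Kinases and phosphatases that act on tau were as even as the neuronal genes. Of 18 genes 0 were called by the 3 tools and 0 had an unadjusted p under 0.05, and log2 fold changes ran from -0.09 to 0.11 with a median of -0.03. Gsk3b had 245, 235, 267 and 244 CPM in PS19 and 251, 264, 244 and 259 CPM in WT (-0.04 ± 0.06), and Cdk5 had -0.06 ± 0.05. The phosphatase subunits Ppp3ca and Ppp2r1a had -0.09 ± 0.06 and -0.04 ± 0.05.

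The senescence list, which joins cell cycle inhibitors with secreted factors, gave 2 calls among 22 genes, with a median of 0.10 and 10 genes at an unadjusted p under 0.05. DESeq2 called 6, and edgeR without PS19 library 3 called 5. Both calls on all libraries were secreted proteins that activated microglia also make. Cxcl16, a chemokine, had 5.22, 4.84, 2.05 and 3.10 CPM in PS19 and 1.72, 1.04, 1.27 and 0.966 CPM in WT (log2 1.61 ± 0.31, edgeR adjusted p = 0.00712). Plau, urokinase, had 6.95, 6.45, 2.64 and 3.75 CPM in PS19 and 1.69 to 2.29 CPM in WT (1.31 ± 0.25, edgeR adjusted p = 0.00776). The cell cycle inhibitor Cdkn1a had 11.9, 15.3, 6.85 and 11.5 CPM in PS19 and 6.15, 5.63, 7.22 and 7.78 CPM in WT (0.77 ± 0.21, edgeR adjusted p = 0.0811). It was called by DESeq2 (adjusted p = 0.0193) and without PS19 library 3 (0.95 ± 0.18, edgeR adjusted p = 0.00402), as were the receptors Tnfrsf1a and Tnfrsf1b of tumour necrosis factor. Cdkn2b, the neighbour of Cdkn2a, had -0.24 ± 0.33. Il1b, an inflammatory cytokine of the same list, had 2.10, 1.19, 1.73 and 1.68 CPM in PS19 and 2.55, 3.11, 2.85 and 3.01 CPM in WT, with no overlap and a log2 fold change of -0.78 ± 0.30 (edgeR adjusted p = 0.319). Cxcl2 was likewise lower without overlap (-0.92 ± 0.38, edgeR adjusted p = 0.382). Of all genes 1.47% did not overlap in this direction. Il6 had 4 counts over the PS19 libraries and 2 over the WT libraries, and 8 genes of the list were too low to be tested.

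Among called genes outside the microglial lists, with a mean log2 CPM above 0, no overlap and no predicted models, the largest rises were again immune genes. Cd22, a sialic acid receptor, had 4.31, 3.65, 0.809 and 2.55 CPM in PS19 and 0.104, 0.270, 0.316 and 0.161 CPM in WT (log2 3.69 ± 0.48, edgeR adjusted p = 0.000355). Ly9 and Slamf9, receptors of the SLAM family, rose by 3.45 ± 0.50 and 2.56 ± 0.30, and the chemokine gene Ccl9 by 3.04 ± 0.39. Lag3, an immune checkpoint receptor that neurons also express, had 46.9, 27.6, 10.4 and 20.1 CPM in PS19 and 5.0, 3.96, 4.27 and 4.89 CPM in WT (2.53 ± 0.35, edgeR adjusted p = 0.00221). Siglecf and the protease gene St14 rose by 2.24 ± 0.34 and 2.18 ± 0.46, and C3ar1 and Cd74, given above, complete the set with Gbp2b. Gbp2b, a guanylate-binding protein, had 3.72, 2.14, 1.56 and 0.978 CPM in PS19 and was at 0 in WT libraries 1 to 3 and at 0.161 CPM in WT library 4.

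Beside Npy1r, Prokr2, Fdps and Msmo1, 3 more genes fell within the same limits. Fam198b, encoding a Golgi protein, had 4.20, 3.56, 3.56 and 2.82 CPM in PS19 and 5.26, 6.26, 4.32 and 6.34 CPM in WT, and fell by 0.65 ± 0.15 on the log2 scale (edgeR adjusted p = 0.0339). Slc26a4, an anion exchanger, had 17.2, 16.8, 18.1 and 18.2 CPM in PS19 and 20.8, 21.9, 21.8 and 21.8 CPM in WT (-0.30 ± 0.07, edgeR adjusted p = 0.0339). Sh3bp4, an adaptor of endocytosis, had 29.5, 31.6, 33.3 and 31.8 CPM in PS19 and 36.2, 36.1, 38.3 and 39.6 CPM in WT (-0.25 ± 0.06, edgeR adjusted p = 0.0331). None of these 3 overlapped between the groups, and their calls were kept in 10, 9 and 9 of 18 settings.

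The called rises varied far more between PS19 libraries than between WT libraries. Over the 255 genes called higher, the median SD of log2 CPM was 0.36 in PS19 and 0.16 in WT, and it was larger in PS19 for 85.1% of them, against 52.9% over all genes, where the medians were 0.14 and 0.13. PS19 library 1 was the highest of its group in 184 of the 255 genes and PS19 library 3 the lowest in 217. Over all genes PS19 library 3 was the lowest in 25.7%. In 30 of the 255 genes PS19 library 3 lay inside the WT range, in PS19 library 4 this held for 2 and in PS19 libraries 1 and 2 for 0.

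The order of the libraries was the same outside the microglial lists. In the 226 called genes that no microglial list holds, the median log2 CPM above the WT mean was 1.17, 0.99, 0.38 and 0.70 in PS19 libraries 1 to 4. The lists are short, and these 226 genes include others that microglia express, such as Ctss, C1qb, Itgb2 and Cd84. Their order is therefore not that of genes free of microglia. In the 9 genes called lower the medians lay closer together, at -0.42, -0.48, -0.34 and -0.42, with PS19 library 3 again nearest to WT. Total gene counts of the PS19 libraries were 18606312, 20605162, 18583666 and 18663026, so library 3 had nearly the depth of libraries 1 and 4. Without PS19 library 3 the calls were 438 (2.64% of 16584 genes), and 257 of the 264 were among them. The calls fell to 124 of 16569 genes without PS19 library 1 and to 131 of 16544 without PS19 library 2.

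**Figure D5:**
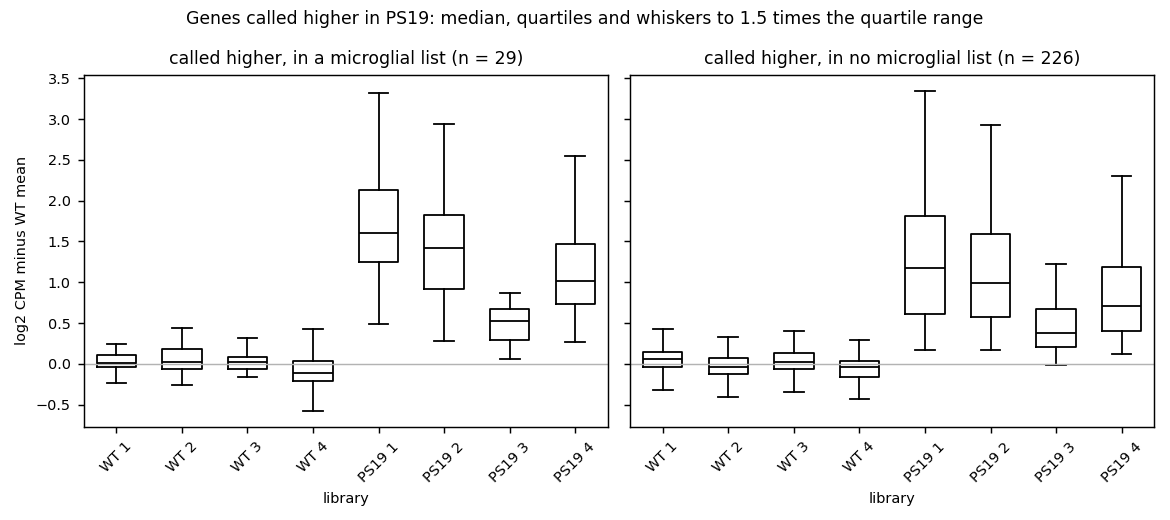
Genes called higher in PS19, in a microglial list (left, 29 genes) and in none (right, 226 genes), as log2 CPM minus the WT mean in each library; boxes show the median and quartiles, whiskers reach 1.5 times the quartile range. Outside the microglial lists the medians were 1.17, 0.99, 0.38 and 0.70 in PS19 libraries 1 to 4. The genes on the right include some that microglia express, such as Ctss and C1qb.

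Single genes show both ends of this spread. Among called genes outside the microglial lists with a mean log2 CPM above 2, those with the widest PS19 values were Cd74, Lag3, Cd84, Slc11a1, C1qa and Osmr. Slc11a1, a metal transporter of phagosomes, had 12.4, 12.5, 4.32 and 7.55 CPM in PS19 and 2.42 to 3.17 CPM in WT, with an SD of log2 CPM of 0.72 and 0.20. Cd84 had 11.5, 11.2, 3.83 and 7.17 CPM in PS19 and 1.69 to 3.47 CPM in WT. The narrowest were Lpcat1, Flcn, Cers2, Sema4d, Anks1 and, among the falls, Slc26a4. Cers2, a ceramide synthase used for myelin lipids, had 43.2, 43.7, 40.8 and 41.3 CPM in PS19 and 37.9, 31.3, 34.6 and 31.8 CPM in WT (log2 0.32 ± 0.07, edgeR adjusted p = 0.0303). Anks1, an adaptor of receptor signalling, had 38.3, 38.2, 35.6 and 36.3 CPM in PS19 and 31.6, 26.8, 30.6 and 27.7 CPM in WT (0.35 ± 0.07, edgeR adjusted p = 0.00776). Sema4d, a semaphorin of oligodendrocytes and immune cells, rose by 0.27 ± 0.06, Lpcat1, a phospholipid enzyme, by 0.25 ± 0.06 and Flcn, the folliculin gene, by 0.19 ± 0.05. Anks1 kept its call in 17 of 18 settings, while Lpcat1 and Flcn kept theirs in 3 and 2.

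Whether the transgene acted differently where p16 was knocked out was tested as an interaction in the same fit. A single gene passed, C3ar1 (0.00611% of all genes), with a transgene effect of 2.68 ± 0.23 on the log2 scale with p16 intact and 0.16 ± 0.22 without it, a difference of 2.52 ± 0.32 (edgeR adjusted p = 0.00248). The number of genes that passed depended on the setting and was 86 with DESeq2. In the p16 knockout mice the transgene called 3 genes (0.0183%), namely Prnp at 0.81 ± 0.07, the pseudogene Lamr1-ps1 at 5.35 ± 0.37 and the unnamed transcript 4930590L14Rik. All 3 rose with p16 intact as well.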

How the data were processed

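Bulk RNA sequencing of hippocampus was deposited by the authors as raw counts per gene for 16 libraries, and the values of ERCC spike-ins were left out here. Per the submitters' processing notes, the genome build was GRCm38 and the tools named are STAR 2.5.2b, Trimmomatic 0.36, Subread 1.5.2, featureCounts and DESeq2. Their roles, strand setting and annotation release were not stated in the sources used here. Without the strand setting, reads of overlapping antisense genes cannot be told apart. Symbols and coordinates came from GENCODE annotation on GRCm38, which named 49326 of 49671 genes.

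Counts were fitted with edgeR 4.0.16 in R 4.3.3: filterByExpr with a minimum count of 10, TMM scaling, a mean for each of the 4 groups over all 16 libraries and a robust quasi-likelihood F test, with Benjamini-Hochberg adjustment over 16372 genes and a threshold of 0.05. The standard error is the log2 fold change divided by the square root of F. Log2 CPM used a prior count of 2. In a test on simulated counts of 16216 genes, 62% of 1.5-fold and 76% of 2-fold changes were recovered with 3 false calls. Only genes with a mean CPM above 1 were changed there, and each gene had the same dispersion in all groups. The wider spread of the called rises in PS19 was not simulated, so these figures need not hold for them. Alternatives were RLE scaling, no filter, a filter of CPM above 1, blocks, only the compared groups, no robust dispersion, each library left out, DESeq2 1.42.0 and limma 3.58.1 voom with sample quality weights, 18 in all.

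The comparison and the gene lists were chosen with earlier results of these data known. Named genes were Mapt, Prnp, Cdkn2a and Gfap, up to 4 called members of each list with the smallest adjusted p, filled to 2 with the highest levels, the 10 largest rises and falls outside the microglial lists with mean log2 CPM above 0, and the 6 widest and 6 narrowest of the called genes with mean log2 CPM above 2. Further genes in the text were picked with their values in view, and a few genes chosen by the rule are not reported here.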

Additional observations from a re-analysis of the deposited data

Results flagged for a closer look

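In groups of 4 libraries, 1 library stood far from the rest when its gap to the nearest other, as a share of the group's range, exceeded Dixon's critical value. This held for 17 of 298 groups examined, and chance alone gives about 1 in 20. WT library 1 stood apart in the median of the oligodendrocyte and myelin list (0.86 of the range) and in the choroid plexus genes Ttr (0.994) and Kl (0.925), which are the tissue differences given above, and in Slc26a4 (0.886). WT library 2 stood apart in the median of the dentate granule cell list (0.933), in Snap25 (0.954), Pcna (0.84), Ccl6 (0.847), Cxcl10 (0.901) and Cd84 (0.922). The other WT libraries did so in Laptm5 (0.866) and C3ar1 (0.894), both library 3, and in Cd52 (0.851) and Gbp2b (1.0), both library 4.

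Among PS19 libraries, library 2 was apart in Slc17a7 (0.838) and Vgf (0.867), and library 4 in Pdgfra (0.873). The effect of the transgene on C3ar1 differed between mice with and without p16 by 2.52 on the log2 scale, by the interaction term of the edgeR fit.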

How the results depend on the processing

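How many genes passed, 264 as reported, varied with the choice of libraries. Leaving out 1 library at a time gave 124 to 438 calls, 120 to 423 higher and 2 to 18 lower, with the fewest calls without PS19 library 1 and the most without PS19 library 3. Without PS19 library 2, WT library 2 and WT library 4 the calls were 131, 143 and 166. With only the compared groups in the fit there were 70 calls, 68 higher and 2 lower. DESeq2 gave 27 lower genes and limma-voom 3. Apart from the block with only the compared groups, given next, the counts of all calls under the remaining settings stayed within 1.5 times the count reported. The 390 calls with DESeq2 are among these.

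Same-numbered PS19 and WT libraries did not deviate together, with correlations of -0.0595, -0.153, -0.0717 and -0.0701. Their names do share the digit that follows the dash, and what that digit stands for is not stated. So few correlations cannot settle whether the numbers pair the samples. With a term for that digit there were 235 calls. With the replicate number as a block there were 238 calls, 231 higher and 7 lower, and with the block and only the compared groups 68, 67 higher and 1 lower. The interaction, 1 gene, gave 6 genes with RLE scaling, 20 with no filter, 5 with the replicate block, 13 with a term for the digit that follows the dash in each library name, 2 without robust dispersion and 86 with DESeq2. It cannot be fitted on the compared groups alone.

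No named gene that was called changed its direction under these 18 settings. List medians did change sign, with ranges of -1.96 to 0.31 in choroid plexus genes, -0.19 to 0.46 in ependymal genes, -0.29 to 0.18 in immediate-early genes and -0.11 to 0.09 in pericyte and smooth muscle genes, and within -0.09 to 0.04 in CA2 and CA3, interneuron, barrier, basement membrane and heat shock genes. The cause of the changed values was not tested. For named genes, 244 comparisons with an alternative lost the call, 5 gained one and 1727 kept their side of the threshold. Genes with few counts, such as Cdkn2a, were left out of the fit by its filter.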
